A study of Mus musculus with 3 samples.

Results

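The granins and the prohormone-processing genes are 10 genes whose products fill, cut and enclose dense-core secretory granules. They were taken by symbol from a table of 24384 named genes, and all 10 symbols were found: Chga, Chgb, Scg2, Scg3, Scg5, Vgf, Pcsk1, Pcsk2, Cpe and Ptprn. The measurements are RNA-seq counts of poly(A) RNA from N1E-115, a cell line derived from a mouse neuroblastoma and labelled as neuroblast. The 3 libraries form 1 group of cells without treatment at day 0, with a wild-type genotype per the labels. The data therefore hold no comparison between conditions, and describe levels and their spread between libraries. The labels do not say whether the libraries came from separate cultures, so the spread may be technical. Library totals were 17731376, 13942014 and 15432235 estimated counts (replicates 1, 2 and 3), and levels are given as CPM, counts scaled to these totals so that 1 count equals 0.0564 to 0.0717 CPM, with mean ± SD over n = 3 libraries. The labelled cell type was checked against 8 markers of sympathetic neuroblasts, all of which reached 1 CPM in every library, with Hand2 at 670 ± 62.0 CPM. Their summed level was 2814 to 3061 CPM. Summed marker levels were 2.03 to 2.51 CPM for 8 endocrine hormone genes, 1.23 to 1.65 for 4 adrenal genes, 2.65 to 3.11 for 5 glial genes, 4.795 to 9.42 for 4 fibroblast genes and 0.389 to 0.789 for 4 immune genes. In every library, 1 CPM was reached by 1 endocrine, 1 adrenal, 1 glial, 2 fibroblast and 0 immune genes of these lists. Gh, Prl, Ins1, Ins2, Gcg, Ppy, Cyp11b1, Pnmt, Ptprc and Cd3e had no counts.

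Dense-core granules bud from the trans-Golgi network of neurons and endocrine cells and release their content on a calcium signal. Granins are acidic proteins that aggregate in the Golgi lumen and are packed as the main cargo, and many of them are themselves precursors of bioactive peptides. The prohormone convertases Pcsk1 and Pcsk2 cut precursors after basic residues, and carboxypeptidase E (Cpe) then trims the basic residues from the new ends. In sympathetic neurons and chromaffin cells the granules store catecholamines together with granins.

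The promoters are shown because members with very different levels share a short sequence there. The cyclic AMP response element, the binding sequence of CREB-family factors, has the 8-base form TGACGTCA. RefSeq promoter windows (GRCm38.p6, from 250 bases before to 50 bases after the annotated start) were listed for 8 members, with a pair of windows for Ptprn. In the sequences below, printed 5′ to 3′ on the strand of the gene, capitals mark TGACGTCA and its shorter form TGACG, on either strand. Chgb, Scg2 and Pcsk1 hold the full form, whereas Chga and Pcsk2 hold only the shorter one.
Chgb, chr2:132781392-132781691, plus strand: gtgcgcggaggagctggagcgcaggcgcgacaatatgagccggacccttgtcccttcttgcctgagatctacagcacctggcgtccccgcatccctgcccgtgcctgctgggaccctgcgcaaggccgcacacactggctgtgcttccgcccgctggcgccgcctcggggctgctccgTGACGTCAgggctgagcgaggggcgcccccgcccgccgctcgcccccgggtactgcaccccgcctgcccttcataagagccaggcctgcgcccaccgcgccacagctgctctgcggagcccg
Scg2, chr1:79439977-79440276, minus strand: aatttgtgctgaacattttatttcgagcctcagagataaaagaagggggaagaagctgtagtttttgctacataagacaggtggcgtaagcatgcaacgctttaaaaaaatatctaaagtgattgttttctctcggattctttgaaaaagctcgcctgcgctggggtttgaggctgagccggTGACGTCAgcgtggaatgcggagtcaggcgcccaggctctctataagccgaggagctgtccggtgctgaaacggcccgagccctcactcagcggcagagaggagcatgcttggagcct
Pcsk1, chr13:75089607-75089906, plus strand: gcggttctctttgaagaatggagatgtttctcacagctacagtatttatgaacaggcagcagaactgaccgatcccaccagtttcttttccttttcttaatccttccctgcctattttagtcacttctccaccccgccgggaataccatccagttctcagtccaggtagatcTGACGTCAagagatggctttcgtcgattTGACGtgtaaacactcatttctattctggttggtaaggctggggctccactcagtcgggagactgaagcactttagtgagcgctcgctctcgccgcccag
Chga, chr12:102554691-102554990, plus strand: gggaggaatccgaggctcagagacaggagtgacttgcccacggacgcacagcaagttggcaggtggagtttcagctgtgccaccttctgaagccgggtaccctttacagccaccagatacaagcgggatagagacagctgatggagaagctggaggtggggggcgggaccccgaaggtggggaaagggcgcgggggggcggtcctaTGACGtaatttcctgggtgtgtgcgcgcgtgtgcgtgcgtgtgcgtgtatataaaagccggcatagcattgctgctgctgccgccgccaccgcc
Pcsk2, chr2:143545883-143546182, plus strand: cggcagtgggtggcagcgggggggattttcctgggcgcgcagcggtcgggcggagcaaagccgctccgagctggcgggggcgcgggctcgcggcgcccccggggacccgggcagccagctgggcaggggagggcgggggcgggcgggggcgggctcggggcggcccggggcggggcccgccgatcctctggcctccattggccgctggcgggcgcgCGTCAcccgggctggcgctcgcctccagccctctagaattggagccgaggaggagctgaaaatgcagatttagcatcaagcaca

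The full form began 72 bases before the RefSeq start in Chgb, 68 in Scg2 and 78 in Pcsk1. It was present in 3 of the 8 members with a window, against 1.79% of all 32851 promoter windows and 3.25% of the 11398 windows of detected genes. TGACG, which is also part of the full form, was found on either strand in all 8 of these members, against 20.8% of all windows and 31.6% of those of detected genes. By window, as these shares are counted, the full form stood in 3 and TGACG in 8 of the 9 member windows. Only 1 of the pair of Ptprn windows held TGACG. Chga carried TGACG 44 bases before its start and Pcsk2 carried its reverse complement CGTCA 34 bases before. The GC box GGGCGG, searched on both strands, stood in 6 of the 8 members and 6 of their 9 windows (35.7% of all windows, 64.2% of those of detected genes). It had 7 matches in Pcsk2 and none in the windows of Scg2 and Scg3. The palindromic E-box CACGTG was in none of the 8 members, against 7.15% of all windows and 9.92% of those of detected genes. TATAAA was found on either strand in 1 member, Chga, against 13.6% of all windows and 6.50% of those of detected genes. In Chga it began at base 6 after the RefSeq start and 23 bases before the GENCODE start. These matches describe letters only. Annotated starts differed between RefSeq and GENCODE, by 28 bases in Chga, 364 in Chgb, and 294 and 731 for the pair of Ptprn windows. The distances hold for the RefSeq starts only. In Chgb and Ptprn the GENCODE start lies before the whole window. In Scg2 it lies 94 bases before the RefSeq start, and in Pcsk1 31. By GENCODE, the full form therefore lies after the start in Chgb and Scg2, and before it only in Pcsk1.

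**Figure D1:**
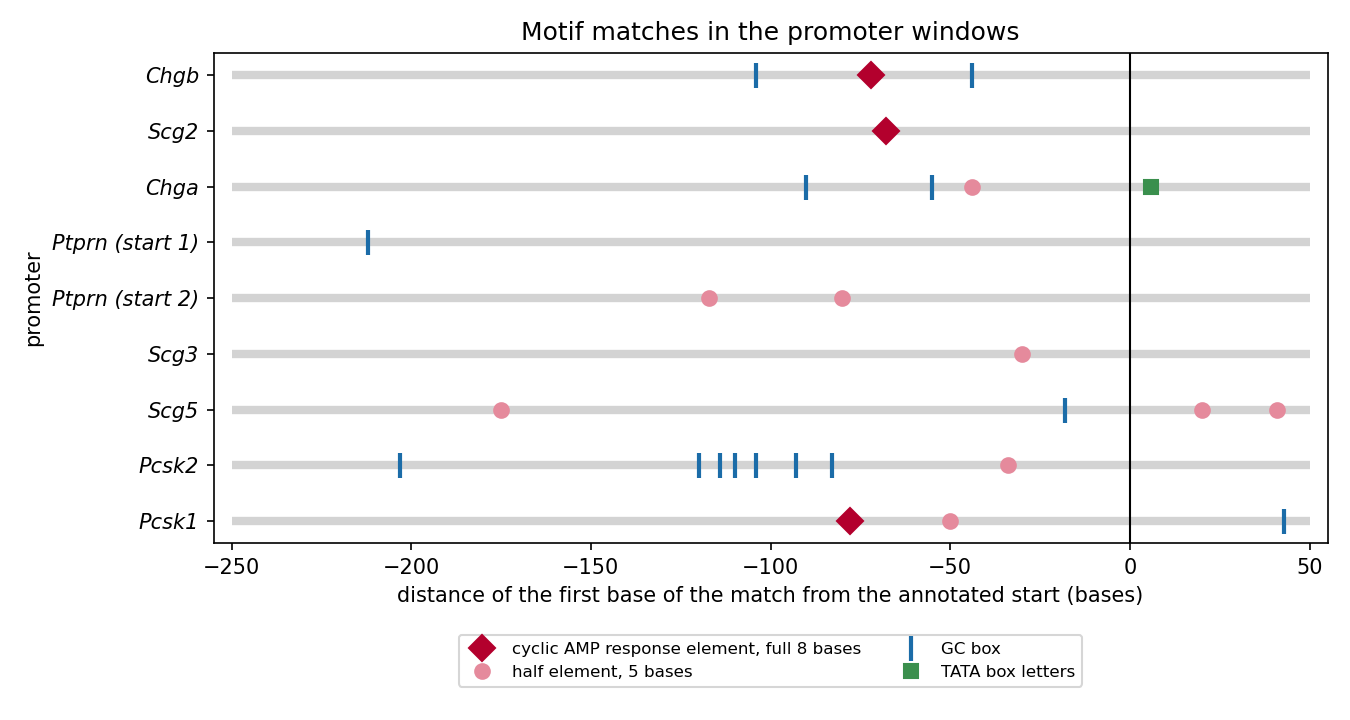
Matches of the full 8-base cyclic AMP response element (diamonds), of its shorter form outside the full one (circles), of the GC box (bars) and of TATA box letters (square) along each promoter window; the x axis is the distance in bases from the RefSeq start, and grey lines are the windows. The 3 diamonds lie between 78 and 68 bases before the start, in Chgb, Scg2 and Pcsk1.

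Of the 10 genes, 9 were detected, meaning at least 1 CPM in every library, against 47.3% of all named genes. Since the genes were chosen with results of these data known, this share is a description. Together they held 241934 counts, or 0.521, 0.543 and 0.478% of the counts of replicates 1, 2 and 3. The median of the 10 members was 220 CPM, against 0.616 over all named genes and 37.5 over the 11522 detected genes. In a bulk sample, fewer expressing cells and less RNA per cell cannot be told apart. All counts of the 10 members were within 0.01 of a whole number, whereas 578 genes of the table had a value further from one.

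Granin cargo supplied nearly all of these counts. The 6 cargo genes took 93.3 ± 0.88% of the members' counts, and 95.1 ± 0.63% of their summed level per kilobase of exon. The 3 enzymes took 2.13 ± 0.15% and Chgb alone 51.2 ± 0.74% of that summed level. Chgb, chromogranin B, is a precursor of several peptides and ranked 19 among all genes by level per kilobase of exon. It held 47401, 39115 and 37319 counts in replicates 1, 2 and 3, or 2673, 2806 and 2418 CPM (2632 ± 197). The 3 libraries lay close together, with replicate 3 the lowest. The gene lies on chromosome 2, at 132781278 to 132795079 (mm10, GENCODE vM21), with 2740 nt of exon in 1 annotated transcript. The genes nearest to it in level over the 3 libraries were Tuba1a (a tubulin, 2522 ± 109 CPM), Gapdh (a glycolytic enzyme, 2736 ± 124) and Rps2 (a ribosomal protein, 2409 ± 230), with root mean square differences of 0.089, 0.11 and 0.14 in log2(CPM + 0.1).

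Secretogranin II (Scg2), the precursor of the peptide secretoneurin, was measured at 727, 744 and 738 CPM (736 ± 8.62; chromosome 1, 79434669 to 79440120). In CPM this was the most even member. Its coefficient of variation (CV) was 1.17%, against a counting error of 0.931% and a median CV of 7.92% among 197 detected genes of like level, within 0.5 on the log2 scale. Vgf, a precursor protein first known as inducible by nerve growth factor in rat PC12 cells, stood at 716, 739 and 641 CPM (699 ± 51.3; chromosome 5, 137026392 to 137033351). Replicate 3 was the lowest. Chromogranin A (Chga), the precursor of catestatin and pancreastatin, stood at 413, 424 and 373 CPM (403 ± 27.2; chromosome 12, 102554969 to 102565028).

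Secretogranin III (Scg3), which binds chromogranin A and the cholesterol-rich granule membrane, was at 195, 216 and 240 CPM (217 ± 22.7; chromosome 9, 75643189 to 75684056). It was the one member with its highest CPM in replicate 3. Scg5, also called 7B2, is the chaperone that Pcsk2 needs to become active and that also inhibits it. It was at 105, 119 and 102 CPM (109 ± 8.99; chromosome 2, 113776362 to 113829121). Replicates 1 and 3 were close and replicate 2 somewhat higher.

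The processing enzymes differed widely in level. Cpe was at 97.5, 108 and 81.8 CPM (95.7 ± 13.0; chromosome 8, 64592542 to 64693054). Pcsk2, the lowest detected member also per length, had 478, 398 and 371 counts, or 27.0, 28.5 and 24.0 CPM (26.5 ± 2.29; chromosome 2, 143546156 to 143816285). Pcsk1, the other granule convertase, had 0 counts in each library (chromosome 13, 75089826 to 75134861). A count of 0 allows up to 3 counts, that is 0.169, 0.215 and 0.194 CPM in replicates 1, 2 and 3, and 0.0637 CPM over the summed libraries. Such limits and the intervals below cover counting error only. The antisense genes Pcsk2os1 and Pcsk2os2 share 260 and 99 exon bases with Pcsk2. Pcsk2os1 held 49, 43 and 26 counts and Pcsk2os2 none, and since the strand setting of the counting is not given in the sources used here, their reads may not be separable from those of Pcsk2.

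Ptprn, also known as IA-2, is a catalytically inactive receptor-type tyrosine phosphatase that spans the granule membrane. It held 4599, 3400 and 2571 counts, or 259, 244 and 167 CPM (223 ± 49.7; chromosome 1, 75247027 to 75264502). Replicate 3 lay apart from the other libraries, which were close to each other. The antisense gene Gm28294 shares 189 exon bases with it and was not in the table.

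**Figure D2:**
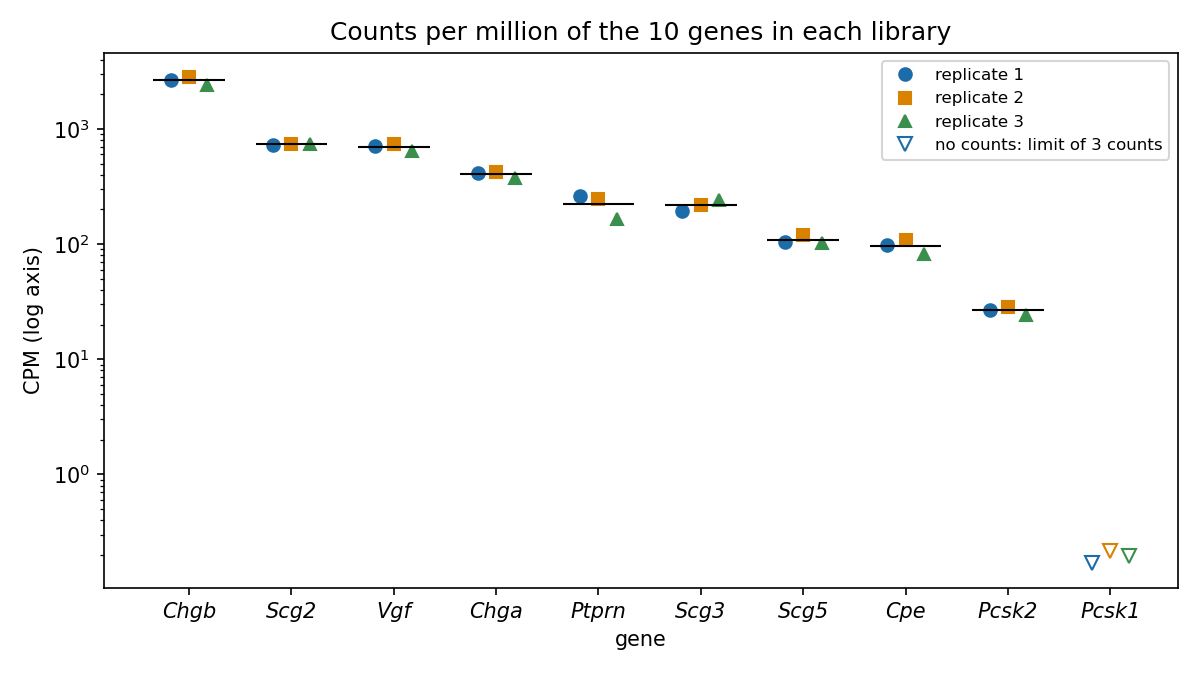
CPM of the 10 genes in each library on a log axis; symbols are the 3 replicates, black lines their mean, and open triangles the limit set by 3 counts where a gene had none. Chgb lies at 2418 to 2806 CPM, the other detected genes between 24.0 and 744, and Pcsk1 is shown at its limits of 0.169 to 0.215.

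Levels of different genes were compared per length, as CPM per kilobase of merged exon. On this scale the order was Chgb (961 ± 71.8), Scg2 (293 ± 3.43), Vgf (235 ± 17.3), Chga (146 ± 9.88), Scg3 (79.3 ± 8.30), Scg5 (69.3 ± 5.73), Ptprn (52.5 ± 11.7), Cpe (36.7 ± 4.99) and Pcsk2 (3.35 ± 0.29). In 6 of the 8 neighbouring pairs the lowest library of the higher gene exceeded the highest library of the lower gene. The exceptions were Scg3 with Scg5 (log2 ratio of the levels 0.19 ± 0.20) and Ptprn with Cpe (0.50 ± 0.19), whose ranges overlapped. Each ratio had the same sign in 3 of 3 libraries. The smallest p that an exact sign-flip test (two-sided) can give with 3 libraries is 0.25. The step from Cpe to Pcsk2 was the widest, with a log2 ratio of 3.45 ± 0.07, and Chgb exceeded Scg2 by 1.71 ± 0.11. The median of the 10 members was 74.3 on this scale, against 7.91 over the 11489 detected genes with a known length. Pcsk2 lay below that median, and the other 8 detected members above it.

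The scale depends on the transcript used. With the longest annotated transcript in place of merged exons, Pcsk2 rose 1.67-fold to 5.61 ± 0.48 (4723 against 7910 nt) and Chga 1.46-fold to 214 ± 14.5 (1883 against 2756 nt). The order of the 9 means stayed as given, and the same 6 pairs were apart. Scg3 and Scg5 were then nearly level (log2 ratio 0.02 ± 0.20), with Scg3 the higher in only 1 of 3 libraries. Vgf and Chga then nearly touched, with a lowest library of 226.2 for Vgf and a highest of 225.4 for Chga.

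**Figure D3:**
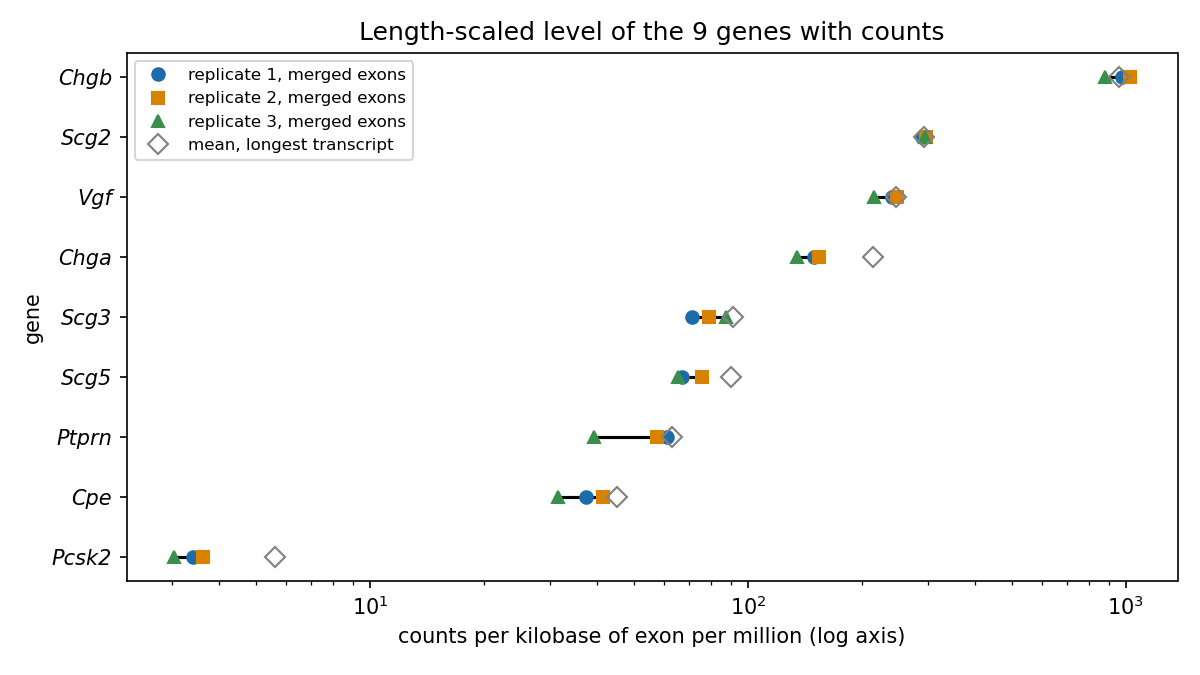
CPM per kilobase of exon on a log axis for the 9 genes with counts; symbols are the 3 replicates with merged exons, black lines their range, and grey diamonds the mean with the longest transcript. Pcsk2 stands alone at 3.04 to 3.61 with merged exons and at 5.61 with the longest transcript, where Cpe lies at 31.4 to 41.3 and 45.2.

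Each member with a close relative or partner was then set beside it, as a ratio of levels per kilobase of exon. Chgb exceeded Chga 6.52-, 6.65- and 6.53-fold in replicates 1, 2 and 3. Over the summed counts the ratio was 6.56 (95% exact Clopper-Pearson interval 6.46 to 6.66), and 4.48 with the longest transcripts. Pcsk2 exceeded Pcsk1 at least 294-fold, with Pcsk1 set at 3 counts over the 3 libraries. Furin, the convertase of the trans-Golgi network that acts in nearly all cells, stood at 18.7, 17.4 and 22.7 CPM per kilobase. Pcsk2 was at 0.171 times the level of Furin (interval 0.161 to 0.181), and at 0.183, 0.207 and 0.134 times in the single libraries. Furin was therefore the more abundant of these convertases in every library.

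Scg5 exceeded Pcsk2, the enzyme it binds, 19.6-, 21.0- and 21.5-fold (20.6 over the summed counts, interval 19.4 to 21.9; 16.0 with the longest transcripts). Pcsk1n, which encodes the Pcsk1 inhibitor proSAAS, was present at 139, 156 and 128 CPM, although the target of that inhibitor had no counts. Its level per kilobase, 64.2 ± 6.43, was close to that of Scg5. Cpe exceeded Cpd, a carboxypeptidase of the trans-Golgi network, 2.99-, 4.51- and 2.97-fold per kilobase (3.36 over the summed counts, interval 3.22 to 3.51). Not divided by length, Cpd held 104, 76.3 and 87.9 CPM, and the mean log2 ratio of Cpe to Cpd, 0.10 ± 0.34, turned to -0.10 without replicate 2. Ptprn exceeded its paralog Ptprn2 22.7-, 26.7- and 13.1-fold (20.1 over the summed counts, interval 18.9 to 21.4; 11.8 with the longest transcripts). This ratio was the least even of the 5 between genes that both had counts, with a log2 SD of 0.53.

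**Figure D4:**
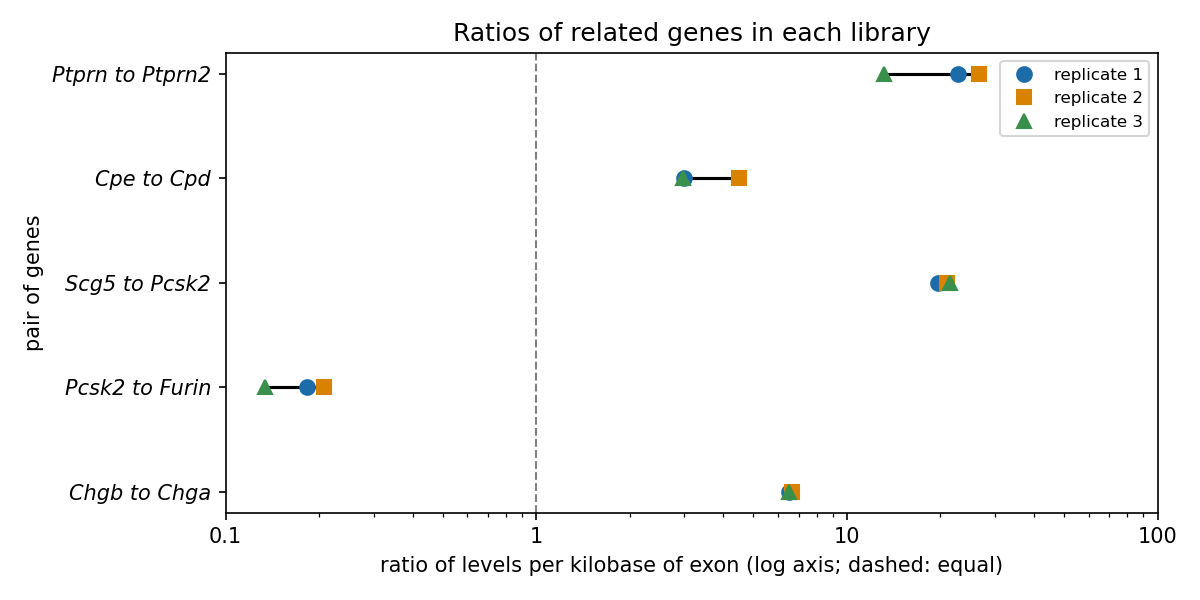
Ratios of levels per kilobase of exon for 5 pairs of related genes on a log axis; symbols are the 3 replicates, black lines their range, and the dashed line marks equal levels. Pcsk2 lies below Furin in each library (0.134 to 0.207), the other 4 ratios lie above 1, and Chgb to Chga is the most even (6.52 to 6.65).

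Whether a member varied between libraries more than genes of similar count was tested with an intercept-only edgeR fit over 11821 genes. None of the 9 tested members passed at a Benjamini-Hochberg adjusted p of 0.05, against 0.626% of all tested genes (74 genes). At an unadjusted p of 0.05, 1 member passed, against 5.99% of all tested genes. That member was Ptprn, with a CV of 22.3% against a counting error of 1.68% and a median CV of 7.70% among 843 genes of like level. Its unadjusted edgeR p was 0.0063 and its adjusted p 0.343, between 0.212 and 0.9999 over the alternatives. Without replicate 3 its unadjusted edgeR p was 0.693. For the other 8 members the unadjusted edgeR p lay between 0.225 and 0.953. Cpe had the next highest CV, 13.6%, and Scg3 followed with 10.5%. The CVs of Chga, Chgb, Scg5, Vgf and Pcsk2 lay between 6.75 and 8.62%.

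In CPM, replicate 2 held the highest value of 7 of the 9 detected members (33.3% of all detected genes), and replicate 3 the lowest value of 7 (39.6%). In CPM, Scg3 was highest in replicate 3 and Ptprn in replicate 1. With TMM scaling, replicate 2 was the highest for 6 members (32.2% of all detected genes) and replicate 3 the lowest for 6 (33.8%). After removal of a trend on exon length and transcript GC content, these counts were 4 and 6, against 28.7 and 33.0% of detected genes with a known length. With TMM scaling, the median log2 difference of a library from the mean of the others was 0.01 in replicate 1, 0.13 in replicate 2 and -0.14 in replicate 3. The same medians over all detected genes lay between 0.00 and 0.01. With that trend removed, the medians were 0.04, 0.04 and -0.09. Ptprn then remained lowest in replicate 3 (log2 -0.43, before removal -0.56) and Scg3 highest there (0.26 before and after). Scg2 was then less even than Chga, at 0.05, -0.09 and 0.03 in replicates 1, 2 and 3, against 0.00, 0.01 and -0.02.

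Some members kept a near-constant ratio to each other. Among the 36 pairs of detected members the SD of the log2 ratio ranged from 0.0089 to 0.49, with a median of 0.11. The 3 lowest SDs of the 36 were those of the ratios among Chga, Chgb and Vgf. They were 0.0089, 0.012 and 0.016, below the counting errors of 0.023, 0.016 and 0.019 that the counts of these genes give. Those of Pcsk2 to the same 3 genes were 0.017 to 0.031, against counting errors of 0.071 to 0.073. Scg3 to Ptprn was the least constant pair. These values describe 3 libraries, were picked after sorting and carry no test. Pairs of other genes of like level were not compared.

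**Figure D5:**
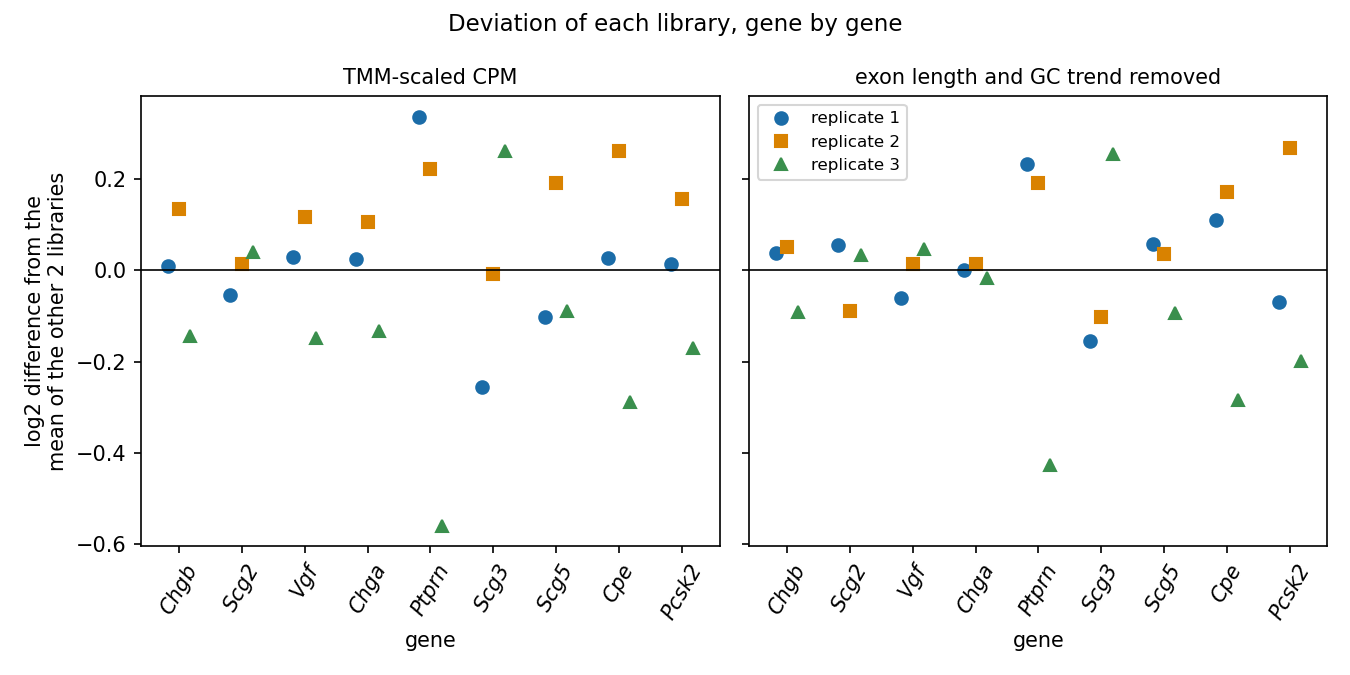
Log2 difference of each library from the mean of the other libraries for the 9 detected members, with TMM-scaled CPM (left) and after removal of the trend on length and GC content (right); symbols are the 3 replicates. Replicate 3 lies lowest for Ptprn (-0.56 and -0.43) and highest for Scg3 (0.26 in both).

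The wider granule pathway was described with 7 further lists of 90 genes, of which 54 (60%) were detected, against 47.3% of all named genes. The lists were chosen with results of these data known, so their shares are descriptions. The highest of each list are given by CPM, not divided by length. Among the other convertases 5 of 7 were detected. Furin (180 ± 25.3 CPM), Mbtps1, the site-1 protease of the Golgi (156 ± 10.5), and Pcsk6 (39.6 ± 6.46) were the highest. Among enzymes that trim or modify secreted peptides 7 of 10 were detected, led by the protease Ctsl (210 ± 37.4 CPM), the amidating enzyme Pam (124 ± 10.9) and Cpd (89.4 ± 13.96). Qpct, which forms pyroglutamate ends, and Cpn1 had no counts.

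Of 16 genes of granule membrane, formation and docking, 12 were detected. Hid1, a factor of granule maturation, was the highest (232, 212 and 181 CPM), followed by the monoamine transporter Slc18a2 (193, 179 and 141) and Ica1 (62.1 ± 4.22). Cadps2, Rab27b and Sytl4 had no counts, and the priming factor Cadps held 7 counts over the 3 libraries (named after its values were seen). All 14 listed genes for subunits and accessory proteins of the proton pump were detected. Atp6v1b2 (422 ± 16.9), Atp6v1a (273 ± 22.3) and Atp6v1c1 (247 ± 13.8) were the highest of them.

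Precursors of neuropeptides and peptide hormones were mostly low or without counts. Only 5 of 30 were detected (16.7%), and 14 had no counts, among them Sst, Gal and Adcyap1. The highest were Nucb2, the precursor of nesfatin-1 (16.4 ± 0.57 CPM), Cartpt (13.8 ± 2.51) and Adm, the precursor of adrenomedullin (6.24 ± 3.74). The median of the 30 was 0.0303 CPM per kilobase, against 191 for the 6 cargo genes. Regulators known to act on granule genes were detected in 10 of 12 cases. Insm1, a zinc finger factor of neuroendocrine cells, was the highest (340 ± 15.8), and Isl1 was at 118 ± 13.9. Creb1, which binds the cyclic AMP response element, was at 75.6 ± 4.76 CPM, and Rest, a repressor of neuronal genes, at 4.06 ± 1.03 CPM (both named after their values were seen).

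Of the 54 genes of these lists that entered the edgeR test, 2 varied between libraries beyond the threshold, against 0.626% of all tested genes, and 5 had an unadjusted p under 0.05, against 5.99%. Adm was at 9.70, 6.74 and 2.27 CPM (edgeR adjusted p = 0.0128), and Cyb561, an electron carrier of the granule membrane, at 70.9, 64.0 and 36.9 CPM (edgeR adjusted p = 0.0465; named after its values were seen). Both were lowest in replicate 3, as Ptprn was. The adjusted edgeR p of Adm was 0.421 without replicate 1, 0.0492 without replicate 2 and 0.9999 without replicate 3. That of Cyb561 was 0.132, 0.115 and 0.9999 without replicates 1, 2 and 3, and 0.0643 with a common dispersion.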

How the data were processed

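Poly(A) RNA was measured in 3 libraries of 1 group. Per the labels, a directional library kit was used; STAR and mm10 are named in the submitters' processing notes, while the sources used here do not give the counting tool, its annotation or its strand setting. Values in the deposited table are estimated counts, 1 row per gene symbol, with no depth scaling. They were rounded to whole numbers. A set of 27 rows named by calendar dates was left out (0.306, 0.294 and 0.281% of counts in replicates 1, 2 and 3).

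Exon lengths, GC content (of the longest transcript) and positions came from GENCODE vM21 (mm10), matched for 24030 genes (98.5%), 677 through older symbols. Promoters came from RefSeq (GRCm38.p6). CPM used totals of named genes; logs used CPM + 0.1. Variation between libraries was tested with edgeR 4.0.16 (R 4.3.3; TMM, filterByExpr, trended dispersion, deviance against chi-square with 2 degrees of freedom, Benjamini-Hochberg adjustment over all genes tested), and checked on simulated data. DESeq2 1.42.0 gave alternative size factors. Other steps used pandas 2.3.3 and SciPy 1.17.1 under Python 3.11.15. Alternatives were other scalings, filters, dispersions, pseudocounts and lengths, and leaving out each library. Depth limits are 3 counts (0.169 to 0.215 CPM per library).

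Members and lists were chosen with earlier results of these data known. Named genes are all members, both genes of each ratio, the 3 highest and up to 3 without counts of each further list, and the 3 nearest to Chgb. Some genes that this rule names are not reported here. Protein features were not analysed here.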

Additional observations from a re-analysis of the deposited data

Results flagged for a closer look

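The 27 rows named by calendar dates held 139034 estimated counts over the 3 libraries, far above the limit of 3 counts that a count of 0 allows; none of the 10 members was among them. Outliers within the group were not tested, since it had 3 samples.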

How the results depend on the processing

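The number of detected members, 9, was the same at minimums of 0.5 and 10 CPM, in any library in place of every library, with TMM scaling, and without each replicate. None of these settings could have changed it. The lowest detected member, Pcsk2, had at least 24.0 CPM in each library, and Pcsk1 had 0 counts. No member was called variable between libraries under any of the 8 alternatives of the edgeR fit. The mean CPM of the 9 detected members moved by less than 1 SD in all 54 comparisons with another scaling, fractional counts or 1 replicate fewer. Only the comparisons with another scaling could have gone otherwise. Leaving out 1 of 3 libraries cannot move a mean by 1 SD, and the members' counts were whole numbers within 0.01. The medians of each library's difference moved by less than the spread between replicates (median SD of members' log2 CPM, 0.11). This held with other scalings, the mean, a 10 CPM minimum or the length and GC trend removed. That spread is nearly as large as the medians themselves, so the limit is wide. With the trend removed, the median of replicate 2 went from 0.13 to 0.04 and that of replicate 3 from -0.14 to -0.09. Of the 8 neighbouring pairs, 7 or 8 were apart without 1 replicate, against 6. The order per kilobase stayed the same, and leaving out a library can then only keep or raise this number, so it is no check. In CPM the order itself changed, with Ptprn above Scg3 and Scg5, and 5 of the 8 pairs of neighbours in that order were apart. Ratios moved with their scale. As log2 per kilobase in place of CPM, Scg5 to Pcsk2 was 4.37 (main 2.03), Cpe to Cpd 1.77 (0.10), Ptprn to Ptprn2 4.31 (3.30) and Pcsk2 to Pcsk1 7.56 (8.05). With a pseudocount of 1, Pcsk2 to Pcsk1 was 4.78, since that ratio is set by the pseudocount. The number of other pathway genes detected was 45 at a minimum of 10 CPM, against 54. Over all genes, 34 to 44 were called variable without 1 replicate and 116 with a common dispersion, against 74. The alternatives for Adm and Cyb561, and for the numbers of members highest in replicate 2 or lowest in replicate 3, were chosen after seeing the data. Depth limits Pcsk1 to under 0.0637 CPM over the summed libraries. No paired analysis was possible because there was 1 group.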
